A study of Mus musculus with 12 samples.

Results

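Polycomb repressive complex 2 (PRC2) was examined through 10 of its subunit genes, the core subunits Ezh1, Ezh2, Suz12, Eed and Rbbp7 and the accessory subunits Jarid2, Aebp2, Mtf2, Phf1 and Phf19. All probes whose accession maps to one of these symbols were taken, which gave 15 probes of 41174 on the array and 10 of the 31064 genes tested. The rule that takes a probe uses no measured value. The cells were single colonies grown in 2D culture from the labial cervical loop of the mouse incisor, the niche that holds dental epithelial stem cells, and each colony's total RNA was read on 1 single-colour Agilent array of mouse genes. There were 4 colonies lacking both Bmi1 and the Ink4a/Arf locus (double null), 4 lacking Bmi1 alone (Bmi1 null) and 4 wild-type colonies (replicates 1, 3, 4 and 5). Loss of Bmi1, a subunit of the sister complex PRC1, is shared by both mutants, and mice of every genotype were of mixed genetic background. The labels name no ages and do not say how many animals gave the colonies, and p-values therefore measure the spread between colonies.

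PRC2 places methyl groups on a lysine of the histone H3 tail (H3K27), a mark of silenced genes that PRC1 can bind. Ezh2, or its paralog Ezh1, is the catalytic subunit and works only in a complex with Suz12 and Eed. Ezh2 is known as the form of dividing cells and as a target of the E2F transcription factors, which the Rb protein holds back and which the Ink4a inhibitor therefore keeps silent. Accessory subunits steer the complex to chromatin. Jarid2 and Aebp2 form one type of PRC2, and the Polycomb-like proteins Mtf2, Phf1 and Phf19 form another.

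Promoters of the 10 genes were searched because E2F control is a textbook link from the Ink4a/Arf locus to PRC2. In the other direction, the locus is itself a known PRC2 target. The RefSeq windows of build GRCm38.p6 reach from 250 bases before to 50 bases after a gene's start, and the 10 genes had 14 such windows. The letters TTTGGCGC and TTTCCCGC, common forms of an E2F site, were searched on both strands. One of them was found in 3 windows, those of Ezh2, Suz12 and Phf19, whereas 1.56% of 32851 mouse promoter windows of the same length held either. The windows of these 3 genes and of Ezh1, the paralog of Ezh2, are shown 5′ to 3′ on the gene's strand, with the E2F letters in capitals.
Ezh2 (chr6:47594981-47595280, minus strand, TTTGGCGC): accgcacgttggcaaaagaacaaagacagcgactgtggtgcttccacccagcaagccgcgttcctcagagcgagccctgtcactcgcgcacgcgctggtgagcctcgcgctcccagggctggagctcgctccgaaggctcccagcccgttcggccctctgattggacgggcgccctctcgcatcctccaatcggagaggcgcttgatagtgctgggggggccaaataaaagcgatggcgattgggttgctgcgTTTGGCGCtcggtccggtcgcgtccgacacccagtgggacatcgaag
Suz12 (chr11:79992856-79993155, plus strand, TTTCCCGC): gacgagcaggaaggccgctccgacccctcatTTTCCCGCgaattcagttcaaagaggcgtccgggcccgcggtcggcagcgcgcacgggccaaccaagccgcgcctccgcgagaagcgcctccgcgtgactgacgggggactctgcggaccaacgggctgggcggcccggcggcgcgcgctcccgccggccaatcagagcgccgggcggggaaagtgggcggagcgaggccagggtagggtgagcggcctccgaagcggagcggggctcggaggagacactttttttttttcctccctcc
Phf19 (chr2:34913927-34914226, minus strand, TTTCCCGC read on the opposite strand): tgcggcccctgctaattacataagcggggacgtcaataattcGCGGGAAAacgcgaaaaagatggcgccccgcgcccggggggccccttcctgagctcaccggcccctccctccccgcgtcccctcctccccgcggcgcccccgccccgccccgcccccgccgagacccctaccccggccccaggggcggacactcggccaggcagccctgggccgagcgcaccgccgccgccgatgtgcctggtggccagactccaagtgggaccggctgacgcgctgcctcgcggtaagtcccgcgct
Ezh1 (chr11:101226414-101226713, minus strand, neither): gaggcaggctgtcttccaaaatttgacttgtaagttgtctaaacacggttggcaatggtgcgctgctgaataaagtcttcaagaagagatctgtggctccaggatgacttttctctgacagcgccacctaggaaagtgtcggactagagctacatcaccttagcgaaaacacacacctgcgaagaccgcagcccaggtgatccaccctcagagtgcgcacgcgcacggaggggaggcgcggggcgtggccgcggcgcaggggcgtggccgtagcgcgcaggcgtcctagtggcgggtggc
The match of Ezh2 began 3 bases after the listed start, that of Suz12 219 bases before it and that of Phf19 208 bases before it. The letters TTTGAA, a cell cycle element, were in 4 of the 14 windows (of Suz12, Eed, Aebp2 and Mtf2) and in 17.9% of all windows. The letters CCAAT were in 8 of the 14 windows and in 37.4% of all windows. A match describes the letters of a window and is not evidence of binding.

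The labels were checked on the deleted genes. Against wild type, Bmi1 fell by 2.25 ± 0.23 (log2 fold change ± SE) in the double null (limma adjusted p = 1.95e-06, -0.86 relative to the median of all genes) and by 2.09 ± 0.23 in the Bmi1 null (adjusted p = 4.16e-06, -0.85 relative). The probe was nonetheless well above background on 4 of 4 arrays of each mutant. Cdkn2a, which encodes Ink4a and Arf, was well above background on 0 double null, 4 Bmi1 null and 0 wild-type arrays. Between the mutants it was at least 2.72-fold lower in the double null (adjusted p = 6.85e-06). Where these probes lie against the deleted parts was not analysed here, so the check is partial. The wild-type arrays stood apart. The interquartile range of log2 signal was 4.04 to 4.93 in double null and 4.32 to 4.69 in Bmi1 null colonies, against 2.49 to 2.62 in wild type. Probes of olfactory receptors, which serve smell, were well above background at 49.0% to 71.7% in double null, 51.8% to 70.4% in Bmi1 null and 96.4% to 99.5% in wild type. Rank correlations over the genes tested were 0.94 to 0.971 between double null and Bmi1 null arrays and 0.668 to 0.773 between mutant and wild-type arrays. All 4 wild-type arrays share this, so no wild-type comparison could be made without them. All 10 epithelial markers, Krt14 and Cdh1 among them, were well above background on every array. On every wild-type array so were 7 of 7 immune, 10 of 10 mesenchymal and 6 of 6 endothelial markers, so this flag does not tell cell types apart there. In bulk RNA, fewer cells of a type and less RNA per cell cannot be told apart.

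The first comparison asked what loss of Ink4a/Arf adds when Bmi1 is already absent. Of 10 members 0 were called higher, 1 (Phf1) was called lower and 9 were not called at a limma adjusted p under 0.05. Over all genes 2.81% were called higher and 4.62% lower, so 1 member called is near the background. At an unadjusted p under 0.05, Ezh2 and Rbbp7 were higher and Phf1 was lower, beside 21.7% of all genes in either direction. The median log2 fold change of the members was 0.11, beside -0.06 over all genes. Minus the median of all genes it was 0.17. That value was -0.003 without double null replicate 4, -0.07 with normexp background correction and 0.08 or more in the other settings. A level is the log2 signal of a probe after subtraction of its array's 75th percentile, which can be compared between arrays for 1 probe but not between probes.

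Phf1, a Polycomb-like subunit that binds histone H3 methylated at lysine 36, had levels of -2.79, -2.13, -2.74 and -2.55 in double null replicates 1 to 4, against -1.96, -1.48, -1.54 and -1.91 in Bmi1 null replicates 1 to 4. All 4 double null colonies lay below all 4 Bmi1 null colonies. Such separation in this direction was found for 7.18% of all genes. The log2 fold change was -0.83 ± 0.20 (SE, n = 4 colonies each, limma adjusted p = 0.0272), with a 95% interval of -1.27 to -0.39. The call rests on the choice of method: Phf1 was lower under all 12 alternatives but called in 6. The call was lost with slide as a fixed block (-1.11, limma adjusted p = 0.0721) and without Bmi1 null replicate 2 or 3 or double null replicate 1 or 3. On the slides that held both mutants the difference was -1.25 and -1.13.

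Ezh2 had levels of -0.01, -0.16, -0.02 and -0.50 in double null replicates 1 to 4 and of -0.71, -0.78, -0.32 and -0.69 in Bmi1 null replicates 1 to 4. Double null replicates 1, 2 and 3 were above every Bmi1 null colony, and double null replicate 4 lay among them. The log2 fold change was 0.45 ± 0.19 (SE), with a 95% interval of 0.04 to 0.87, and did not pass the threshold (limma adjusted p = 0.188). On the slides that held both mutants it was 0.76 and 0.07. Double null replicate 4 also had the highest mean of the mesenchymal markers, 0.56 against -1.21 or less in the other double null colonies. On every double null array 10 of 10 of these markers were well above background. Without that colony the Ezh2 fold change was 0.56 (limma adjusted p = 0.118). The part of the markers in the Ezh2 level was not tested.

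Ezh1, the paralog also found in resting cells, had levels of -0.95, -0.78, -0.99 and -0.13 in double null and -0.88, -0.96, -1.08 and -0.69 in Bmi1 null replicates 1 to 4. The groups overlapped, with a fold change of 0.19 ± 0.21 on the log2 scale (SE, limma adjusted p = 0.673) and a 95% interval of -0.27 to 0.65. Its highest level was in double null replicate 4, the colony with the lowest Ezh2 of that genotype.

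Rbbp7, a histone-binding WD40 protein that PRC2 shares with other complexes, had levels of 1.21, 1.72, 1.06 and 1.44 in double null and 0.95, 0.56, 0.29 and 0.78 in Bmi1 null replicates 1 to 4. The groups did not overlap, as for 6.6% of all genes in this direction, but the fold change of 0.72 ± 0.29 (log2, SE, 95% interval 0.09 to 1.34) did not pass the threshold (limma adjusted p = 0.166). Suz12, which holds the core together and carries the accessory subunits, had levels of 0.01, 0.08, -0.04 and 0.15 in double null and -0.23, -0.11, -0.55 and -0.38 in Bmi1 null replicates 1 to 4. Here too the groups did not overlap, while the fold change of 0.37 ± 0.19 (log2, SE, 95% interval -0.04 to 0.78) did not pass (limma adjusted p = 0.29). Eed, the subunit that reads the methyl mark and stimulates the enzyme, was at 0.64 to 1.17 in double null and 0.97 to 1.17 in Bmi1 null colonies, with an interval of -0.68 to 0.46 for the log2 fold change.

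The other accessory subunits were not called between the mutants. Jarid2, a DNA-binding cofactor, had a log2 fold change of 0.02 with a 95% interval of -0.39 to 0.44. Phf19 had one of 0.02 with an interval of -0.72 to 0.75, and its levels ran from -2.82 to -1.65 in double null and -2.70 to -1.19 in Bmi1 null colonies. Mtf2, a Polycomb-like protein that binds unmethylated CpG-rich DNA, had one of 0.41 (interval -0.09 to 0.92). Aebp2, a zinc finger partner of Suz12, had one of -0.35 (interval -0.80 to 0.11) with its brighter probe and -0.67 ± 0.19 (SE, limma adjusted p over all probes = 0.052) with its dimmer one. A p above the threshold does not show equal levels, and the intervals leave room for log2 differences up to 1.34 in size.

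**Figure D1:**
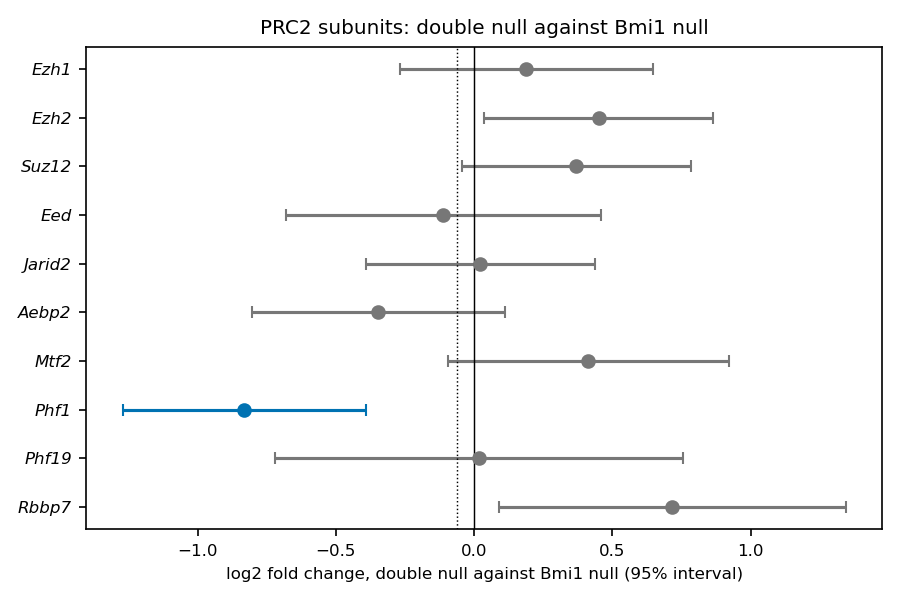
Log2 fold change of each PRC2 subunit gene, double null against Bmi1 null (point, n = 4 colonies each), with its 95% interval from limma (bar). Genes run down the page, the solid line marks 0 and the dotted line the median of all genes, -0.06. The blue point is Phf1, at -0.83, and the grey points are the 9 genes not called.

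The comparisons with wild type asked how loss of Bmi1, alone or with Ink4a/Arf, goes with PRC2 levels. Of 10 members 9 were called higher and 1, Phf19, lower in the double null. In the Bmi1 null 8 were called higher, Phf19 lower, and Ezh1 was not called. Over all genes 25.7% were called higher and 59.7% lower in double null, and 25.2% higher and 58.3% lower in Bmi1 null colonies. Among the 21931 genes well above background on all 12 arrays the shares were 36% higher and 46.7% lower, and 35.2% higher and 45.3% lower. The 4 colonies of a mutant and of wild type did not overlap for 9 members higher and 1 lower in double null, and for 7 higher and 1 lower in Bmi1 null colonies, beside 24.7% higher and 56.6% lower, and 23.8% higher and 56.3% lower, of all genes. Both comparisons use the same 4 wild-type arrays. After scaling, the median fold change of all genes against wild type was -1.39 in double null and -1.24 in Bmi1 null colonies. Values called relative are the fold change minus this median, while the p-values test the fold change itself. The median relative value of the members was 2.44 in double null and 2.10 in Bmi1 null colonies, and over genes well above background on all arrays, relative to their own median, it was 1.42 and 1.17.

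**Figure D2:**
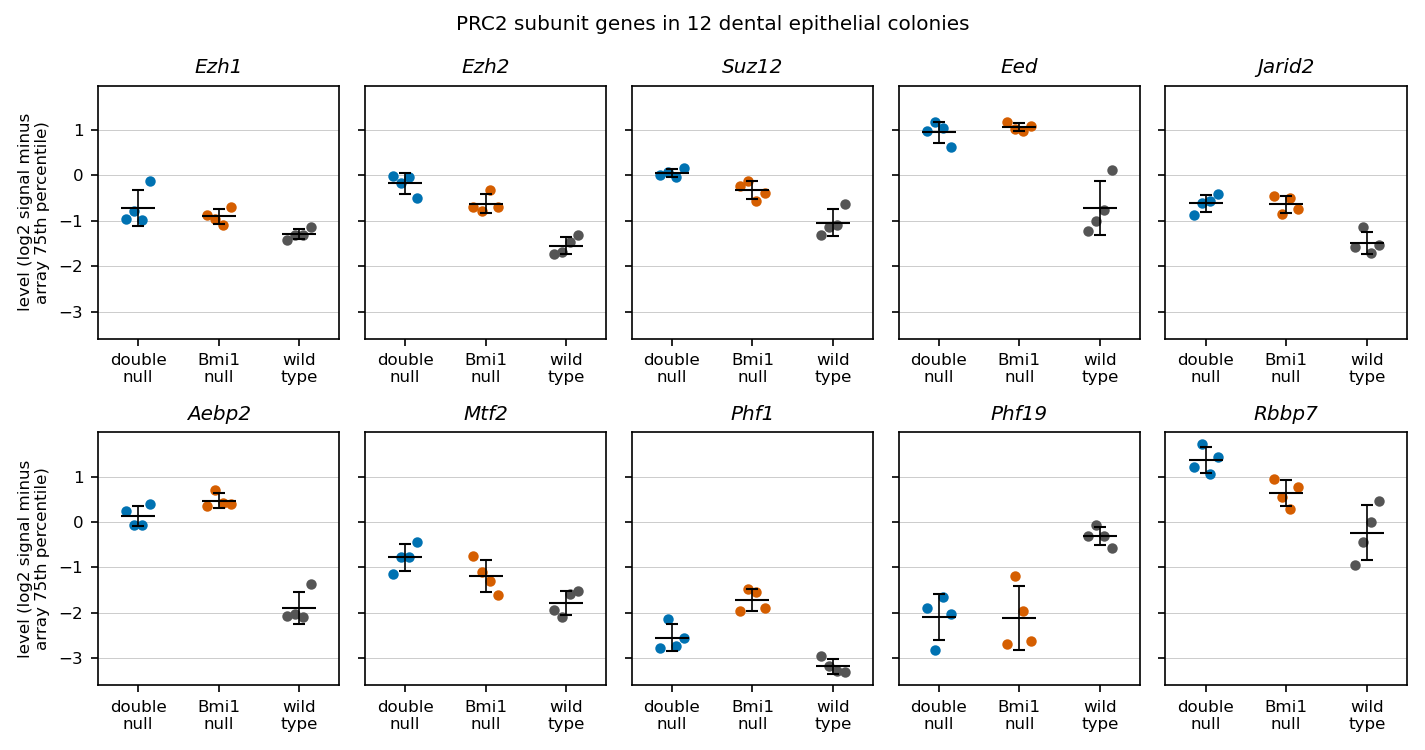
Level of each PRC2 subunit gene (log2 signal after subtraction of the 75th percentile) in 12 colonies, with 1 point per colony and bars for the mean ± SD of 4 double null, 4 Bmi1 null and 4 wild-type colonies. Wild-type points are lowest for most genes and highest for Phf19, where they lie between -0.56 and -0.07.

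Ezh2 had levels of -1.73, -1.68, -1.47 and -1.31 in wild-type replicates 1, 3, 4 and 5, below all mutant levels given above. It was higher by 1.37 ± 0.19 in double null (log2, SE, 2.77 relative to the median, limma adjusted p = 2.3e-05) and by 0.92 ± 0.19 in Bmi1 null colonies (2.16 relative, adjusted p = 0.000623). Both calls stood in all 12 alternatives. Ezh1 had wild-type levels of -1.41, -1.30, -1.31 and -1.15, also below every mutant colony. It was higher by 0.58 ± 0.21 in double null (1.97 relative, adjusted p = 0.0206) and differed by 0.39 ± 0.21 in Bmi1 null colonies, which was not called (1.63 relative, adjusted p = 0.1). The double null call stood in 9 of 12 alternatives and was lost without double null replicate 4 or wild-type replicate 1.

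The paralogs were also set against each other within each array, as Ezh2 minus Ezh1 over the wild-type mean of that difference. This was 1.20, 0.88, 1.22 and -0.12 in double null replicates 1 to 4, 0.42, 0.43, 1.02 and 0.26 in Bmi1 null replicates 1 to 4, and -0.06, -0.12, 0.09 and 0.09 in wild type. Double null replicate 4 lay at the wild-type level, and each of the other mutant colonies lay above every wild-type colony. The mean was 0.79 ± 0.63 (SD, n = 4) in double null, or 1.10 ± 0.19 (n = 3) without replicate 4, and 0.53 ± 0.33 (n = 4) in Bmi1 null colonies, against 0.00 ± 0.11 (n = 4) in wild type.

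Eed was at 0.64 or more in every mutant colony, against -1.22, -1.01, -0.76 and 0.12 in wild type. Eed rose by 1.67 ± 0.26 in double null (log2, SE, 3.07 relative, limma adjusted p = 6.3e-05) and by 1.79 ± 0.26 in Bmi1 null colonies (3.02 relative, adjusted p = 4.08e-05). Suz12 had wild-type levels of -1.32, -1.14, -1.08 and -0.62, below all mutant colonies, and was higher by 1.09 ± 0.19 in double null (2.49 relative, adjusted p = 0.000156) and by 0.72 ± 0.19 in Bmi1 null colonies (1.96 relative, adjusted p = 0.00354). The second Suz12 probe moved the same way, by 1.91 and 1.42 (2.97 and 2.34 relative to the median of all probes). Rbbp7 had wild-type levels of -0.95, -0.43, -0.01 and 0.46, apart from the double null colonies but overlapping the Bmi1 null ones. It was higher by 1.59 ± 0.29 (2.99 relative, adjusted p = 0.000211) and by 0.87 ± 0.29 (2.11 relative, adjusted p = 0.0132). The core subunits were called higher in both mutants, with Ezh1 in Bmi1 null colonies as the exception.

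Among the accessory subunits, Aebp2 in both mutants lay far above its wild-type level. Its brighter probe had levels of 0.25, -0.06, -0.06 and 0.39 in double null and 0.36, 0.71, 0.43 and 0.39 in Bmi1 null replicates 1 to 4, against -2.08, -2.03, -2.09 and -1.36 in wild type. The groups were more than 1 log2 unit apart. The rise was 2.02 ± 0.21 in double null (SE, 3.41 relative, limma adjusted p = 2.19e-06) and 2.36 ± 0.21 in Bmi1 null colonies (3.60 relative, adjusted p = 7.2e-07), and the dimmer probe rose by 1.23 and 1.90 (2.29 and 2.82 relative to the median of all probes). Jarid2 had levels of -0.87, -0.61, -0.57 and -0.41 in double null and -0.45, -0.85, -0.50 and -0.74 in Bmi1 null colonies, against -1.59, -1.14, -1.70 and -1.53 in wild type. Jarid2 rose by 0.87 ± 0.19 in double null and 0.85 ± 0.19 in Bmi1 null colonies (2.27 and 2.09 relative, adjusted p = 0.000888 and 0.00113), while its second probe, well above background on 3 of 4 wild-type arrays, was called in double null and not in Bmi1 null colonies (0.68 and 0.41, or 1.74 and 1.33 relative to the median of all probes, adjusted p over all probes = 0.021 and 0.142). Between the mutants that probe differed by 0.28 (adjusted p over all probes = 0.573).

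The Polycomb-like subunits did not share a direction. Phf19, which binds histone H3 methylated at lysine 36, had levels of -1.89, -2.82, -1.65 and -2.04 in double null and -2.70, -1.19, -1.96 and -2.63 in Bmi1 null colonies, against -0.32, -0.07, -0.31 and -0.56 in wild type. All 8 mutant colonies lay below all 4 wild-type colonies. Phf19 fell by 1.78 ± 0.34 in double null (log2, SE, limma adjusted p = 0.000308) and by 1.80 ± 0.34 in Bmi1 null colonies (adjusted p = 0.000305). Relative to the median of all genes these were -0.39 and -0.56, and against genes well above background on all arrays -1.41 and -1.49. The calls stood in all 12 alternatives and without any 1 array. Of all genes 59.7% in double null and 58.3% in Bmi1 null colonies were called lower too.

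Phf1 had wild-type levels of -2.97, -3.17, -3.29 and -3.31, below every mutant colony. The rise was 0.63 ± 0.20 in double null (log2, SE, 2.03 relative, limma adjusted p = 0.0108) and 1.46 ± 0.20 in Bmi1 null colonies (2.70 relative, adjusted p = 2.53e-05). The double null call was lost in 4 of 12 alternatives and the Bmi1 null call in 0. Mtf2 had levels of -1.16, -0.77, -0.77 and -0.44 in double null and -0.76, -1.11, -1.31 and -1.61 in Bmi1 null colonies, against -1.94, -2.09, -1.59 and -1.52 in wild type. In double null colonies the 95% interval of the log2 fold change was 0.49 to 1.51 (2.40 relative, limma adjusted p = 0.00141). The gene rose by 0.59 ± 0.23 in Bmi1 null colonies (1.83 relative, adjusted p = 0.0323), and this call was lost in 4 of 12 alternatives and without Bmi1 null replicate 1 or 2 or wild-type replicate 1 or 3. Its 3 probes disagreed: another rose by 2.24 and 1.85 (3.30 and 2.77 relative to the median of all probes), and the last was not called (0.12 and 0.04, or 1.18 and 0.96 relative, adjusted p over all probes = 0.604 and 0.869).

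**Figure D3:**
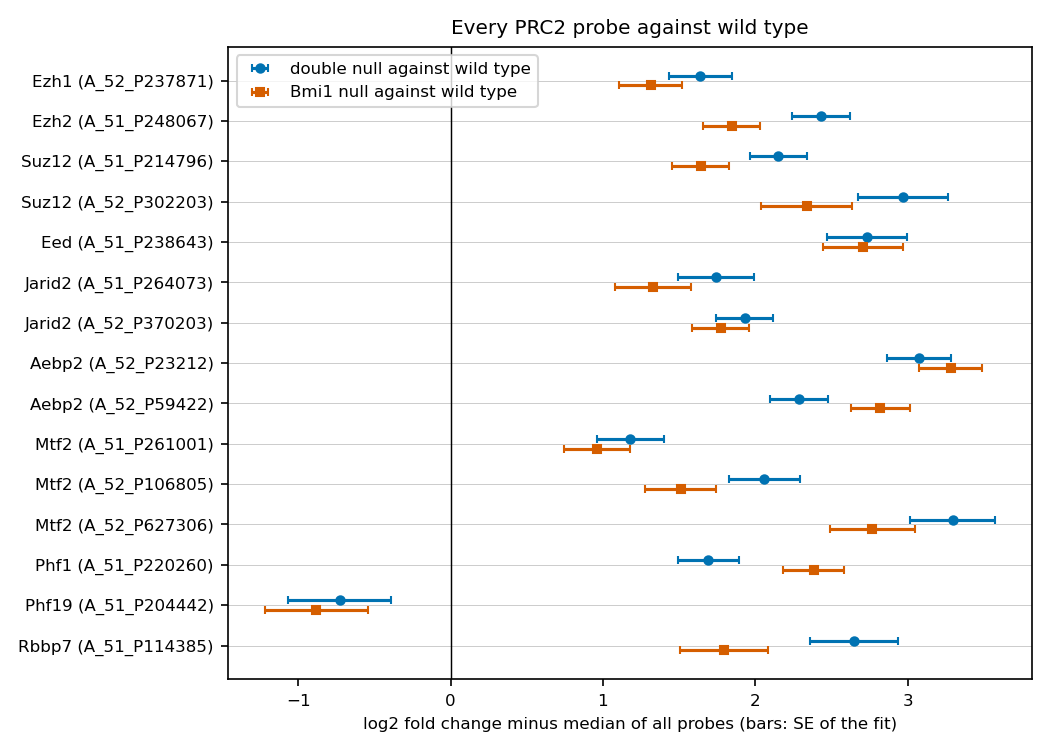
Log2 fold change against wild type, minus the median of all probes, for each of the 15 PRC2 probes in double null (blue circles) and Bmi1 null (orange squares) colonies. Bars are the SE of the fit and the line at 0 is the median probe. The Phf19 probe is the one left of 0, and the 3 Mtf2 probes run from 0.96 to 3.30.

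Slide and scaling were checked beside these values. Against wild type, the fold changes of the 9 members other than Phf19 were above 0 under all 12 alternatives. Within slide 1, the Bmi1 null against wild type values relative to the median were above 0 for 9 of 10 members (median 2.40), and within slide 2 for 9 of 10 (1.92). Such values rest on 1 or 2 arrays a genotype and were not tested. Within slide 2, double null against wild type also had 9 of 10 above 0 (2.47), and Phf19 was the member below 0 each time. Under median scaling 36.5% of all genes were called higher and 43.2% lower in double null, and 36.8% and 41.8% in Bmi1 null colonies, where 9 members were called higher and Phf19 lower in either mutant. With the 75th percentile taken over probes well above background on every array, the calls of Ezh1 and Phf1 in double null and of Suz12, Mtf2 and Rbbp7 in Bmi1 null colonies were lost. With normexp background correction, those of Ezh1 and Phf1 in double null and of Mtf2 in Bmi1 null colonies were lost. With slide as a fixed block, those of Ezh1, Jarid2 and Phf1 in double null and of Mtf2 in Bmi1 null colonies were lost. Ezh1 in Bmi1 null colonies was called higher under median scaling, quantile normalization and in the authors' values. The range of signals moved with genotype. Genes of ribosomal proteins, needed in every cell, lay a median of 6.89 to 7.67 log2 units above the array median in double null, 6.82 to 7.38 in Bmi1 null and 3.89 to 4.39 in wild-type colonies, and epithelial markers were called higher in 10 of 10 and 9 of 10 cases. Immune markers, such as Ptprc, averaged -4.06 to -2.89 in double null and -4.01 to -3.29 in Bmi1 null colonies, against -0.44 to -0.04 in wild type, and 7 of 7 were called lower. Endothelial markers were called lower in 6 of 6 and neural crest markers in 7 of 7 cases in either mutant. Mesenchymal markers were called lower in 4 of 10 in double null and 5 of 10 in Bmi1 null colonies. Vim, the 1 mesenchymal marker called higher, rose by 2.48 in double null and 1.68 in Bmi1 null colonies (3.88 and 2.92 relative). In the same fit 59.7% of all genes were called lower in double null and 58.3% in Bmi1 null colonies. The part of these shifts in the PRC2 values was not tested.

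**Figure D4:**
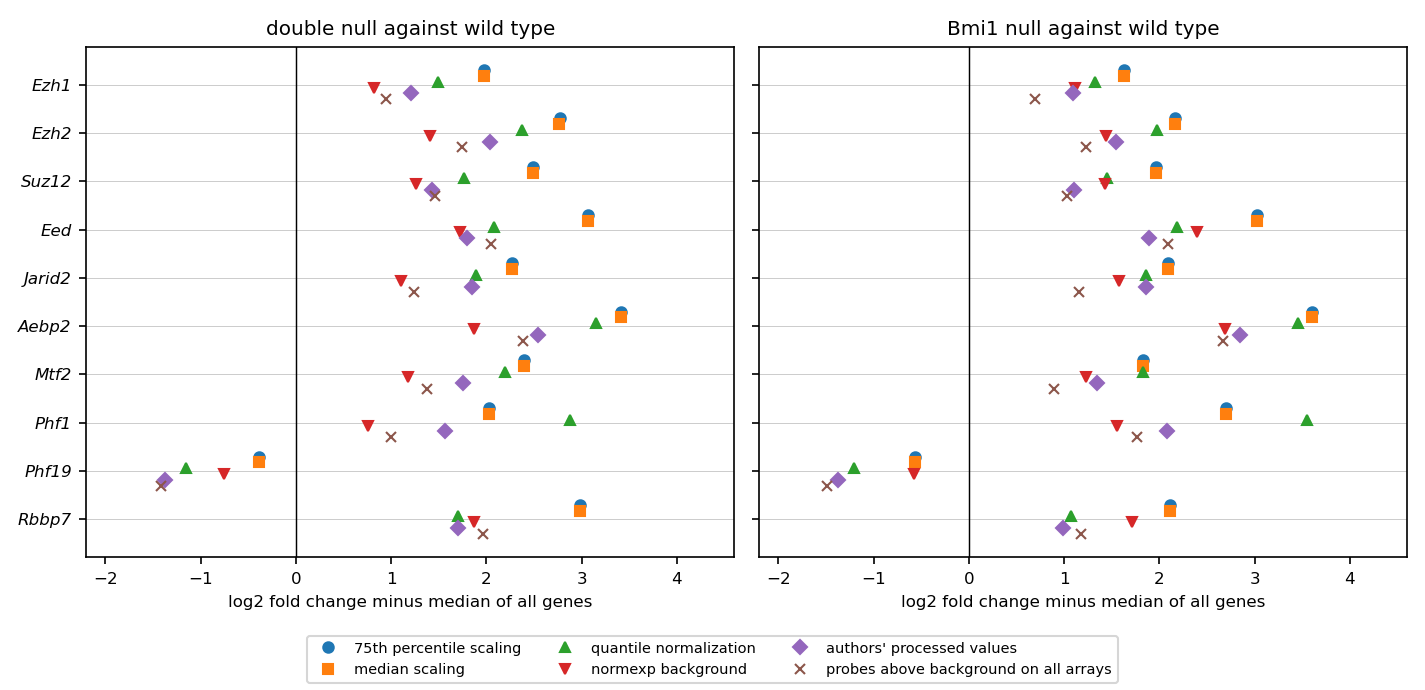
Log2 fold change against wild type, minus the median of all genes, for each PRC2 subunit gene under 6 ways of processing (one symbol each), in double null (left) and Bmi1 null colonies (right). All Phf19 symbols lie left of 0 and those of the other 9 genes right of it.

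Other genes of the pathway were taken from lists drawn up by gene function. Of 7 further PRC2 genes 6 were tested. Rbbp4, the paralog of Rbbp7, rose by 2.63 ± 0.26 in double null (log2, SE, 4.02 relative, limma adjusted p = 1.53e-06) and by 2.21 ± 0.26 in Bmi1 null colonies, both against wild type (3.45 relative, adjusted p = 7.02e-06). Elob and Eloc, the elongin subunits that join PRC2 through Epop, rose by 2.04 and 2.00 in double null (3.43 and 3.39 relative) and by 2.28 and 1.79 in Bmi1 null colonies (3.52 and 3.03 relative). Lcorl rose by 0.55 and 0.79 (1.95 and 2.03 relative). Lcor was lower in the double null (-0.80 against Bmi1 null, limma adjusted p = 0.0236), the single call of this list between the mutants. Epop had a fold change of -0.58 in Bmi1 null colonies against wild type (adjusted p = 0.0401), but a relative value of the opposite sign, 0.66. Both H3K27 demethylases, which remove the PRC2 mark, were called higher than in wild type: Kdm6a by 1.54 and 1.79 (2.94 and 3.03 relative) and Kdm6b by 1.72 and 1.61 (3.12 and 2.85 relative) in double null and Bmi1 null colonies (limma adjusted p = 1.13e-05 or less for double null and 3.65e-06 or less for Bmi1 null). Neither was called between the mutants.

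Between double null and Bmi1 null colonies, 13 of 24 E2F and cell cycle genes were called higher and 0 lower. Over all genes 2.81% were called higher and 4.62% lower in this comparison. The median log2 fold change of the list was 0.85, beside -0.06 over all genes. With slide as a fixed block, 94 of 31064 genes were called higher and 176 lower, and whether the 13 calls stood there was not tested. E2f2, an activating E2F factor, was higher by 1.68 (limma adjusted p = 0.00302), Tk1, thymidine kinase, by 1.61 (adjusted p = 0.0104) and Top2a, a topoisomerase of dividing cells, by 1.60 (adjusted p = 0.0137). Of the PRC2 members with E2F letters in the promoter window, Ezh2 had 0.45, Suz12 0.37 and Phf19 0.02, none of them called. Of other lists between the mutants, the deubiquitinase complex PR-DUB had 0 of 7 called, methyltransferases that oppose PRC2 0 of 13, PRC1 1 lower of 18 (Scmh1, -1.08, adjusted p = 0.0195), and known PRC2 targets 1 lower of 21 (Cdkn2a). Against wild type, 25.7% of all genes were called higher and 59.7% lower in double null, and 25.2% and 58.3% in Bmi1 null colonies. Beside these shares, the PRC2 targets had 2 called higher and 17 lower of 21 in double null, and 3 higher and 17 lower in Bmi1 null colonies. The 17 in double null colonies include Cdkn2a, deleted there and not well above background on any array of either genotype compared. The opposing methyltransferases had 11 higher and 0 lower of 13 in double null, and 10 higher and 1 lower in Bmi1 null colonies. PRC1 genes had 7 higher and 4 lower of 18 in double null, and 8 higher and 4 lower in Bmi1 null colonies, with the deleted Bmi1 among the 4 lower in either. PR-DUB genes had 3 higher and 1 lower of 7 in double null, and 4 higher and 1 lower in Bmi1 null colonies.

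Across the 8 mutant arrays, the 5 genes with a symbol whose level was most like that of Ezh2 were Il17rb, Tcf7, Sh3bp4, Ints5 and Tubg1, with Pearson correlations of 0.977, 0.97, 0.962, 0.962 and 0.959. These describe 8 arrays of 2 genotypes, whose mean Ezh2 levels were -0.17 in double null and -0.62 in Bmi1 null colonies, and leave out the wild-type arrays, which stood apart. Against wild type the 5 genes did not share a direction. Il17rb, unlike Ezh2, fell, from -0.64 to 0.10 in wild type to -5.29 to -3.14 in the mutants. Tcf7 and Sh3bp4 lay below every wild-type colony in the Bmi1 null and overlapped wild type in the double null. Ints5 and Tubg1 were higher in every mutant colony than in wild type. Among the other members Rbbp7 came closest, at 0.417, and Aebp2 and Phf1 had correlations of -0.782 and -0.677 over these 8 arrays, while both genes, like Ezh2, were called higher in each mutant than in wild type.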

How the data were processed

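Total RNA of 12 colonies was amplified, labelled with Cy3 and read on single-colour Agilent arrays, per the labels' protocols. Each array's file is scanner output, made by the authors in Feature Extraction 10.7.3.1 (protocol GE1_107_Sep09, grid build mm9), per the file headers, and the deposited processed signal is a background-subtracted intensity on a linear scale. The authors also deposited log2 values of these arrays, of unstated normalization, which served as an alternative. The median of a column lay at 7.21 to 7.24, and each column followed its array's log2 signal at r of 0.992 to 1, which gives their log2 scale and direction. Their centring and any change of spread between arrays are unknown, and values relative to the median of all genes differ in them.

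Of 45018 spots 43379 were not controls and 0 were saturated. Spots marked as outliers, 55 to 1336 per array, were treated as missing. The log2 processed signal minus the array's 75th percentile was fitted for 31064 genes. A probe was kept if well above background on at least 3 of 4 arrays of a genotype (39338 of 41174 probes, and 15 of 15 PRC2 probes), and the brightest kept probe stood for its gene. Symbols came from RefSeq accessions (assembly GRCm38.p6): 24844 probes had 1 symbol, 0 several and 16330 none. One model over 12 arrays (lmFit and eBayes of limma 3.58.1, R 4.3.3, with 9 residual degrees of freedom) gave p-values, adjusted over all genes by Benjamini and Hochberg's method. For Cdkn2a, the fold is a bound: the brighter genotype's mean against the dimmer one's mean of, per array, the probe's value or, where higher, the dimmest signal still well above background. The script was tested on simulated data. The number of arrays limits the precision, and 5 slides were tested as batches. The planned normexp alternative used the median spot signal, with an offset of 50, because the files analysed have no mean signal column.

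The rule for naming genes took all 10 members, Bmi1 and Cdkn2a, up to 3 called genes of each of 12 further lists by the size of the change between the mutants, all further PRC2 genes and demethylases, and the 5 genes most like Ezh2. Members and lists were chosen with earlier results of these data known. Endothelial and neural crest markers had 0 calls between the mutants of 6 and 7 tested, as had the immune markers of 7 and the mesenchymal markers of 10, while Epcam was the 1 of 10 epithelial markers called (1.73 higher in double null colonies, limma adjusted p = 0.00977).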

Additional observations from a re-analysis of the deposited data

Results flagged for a closer look

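Both flagged values belong to Aebp2. Its dimmer probe was at -1.30 in Bmi1 null replicate 1, below the other 3 Bmi1 null colonies, which lay between -0.94 and -0.92. Its brighter probe was at -1.36 in wild-type replicate 5, above the other 3 wild-type colonies at -2.09 to -2.03. Each gap exceeded Dixon's 95% critical value for 4 arrays, at 0.93 and 0.91 of the group's range. With 45 groups tested, chance gives about 1 such value in 20 groups.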

How the results depend on the processing

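With 1 array left out, double null against wild type gave 9 to 10 members and 25572 to 26521 genes called, and Bmi1 null against wild type gave 8 to 9 members and 24808 to 25742 genes. Between the mutants 2308 genes were called, against 1405 with quantile normalization, 1106 with normexp and 270 with slide as a fixed block. The count was 936 with only both mutants in the fit and 1382 to 2702 when 1 array was left out. The 1 called member, Phf1, was lost (0 called) under median scaling, quantile normalization, normexp, the slide block, the replicate block and the fit of both mutants alone, and 0 to 1 members were called when 1 array was left out. Deviations of same-numbered colonies correlated at -0.116 to 0.216 between the mutants. With wild type they correlated at -0.112 to 0.143 for Bmi1 null and -0.141 to 0.129 for double null colonies. Differently numbered colonies were not compared, so these values do not settle whether the replicate numbers pair colonies. With the numbers as a replicate block 1348 genes were called between the mutants. Of genes called, 30.1% were higher in double null than in wild type, against 45.8%, 46.4% and 46.8% under median scaling, quantile normalization and the authors' values. In Bmi1 null colonies it was 30.2%, against 46.9%, 46.7% and 46.7%. Between the mutants it was 37.8%, against 48.8% in the authors' values and 58.3% with normexp. Over all alternatives 33 single-gene values lost a call, 3 gained one and 0 turned sign with a call. The replicate block ended the call of Phf1 (double null) and of Mtf2 (Bmi1 null) against wild type, and of no other member there. The 4 arrays of a genotype limit how small a difference could be called. The cause of these changes was not tested.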
